A study of Mus musculus with 2 samples.

Results

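Gstm1, Gpx3, Fmo2, Inmt, Sult1e1, Hsd11b1, Sod3, Mt1, Mt2 and Aldh1a1 are detoxification and stress-defence genes that were selected on earlier results of these same data, as genes with lower levels in adipose tissue fibroblasts after high-fat diet (HFD) than after low-fat diet (LFD). They are 10 of the 27998 genes listed, and all 10 had counts in both libraries. Because the fibroblast contrast between the diets chose them, it is described here and not tested. The data are 1 single-cell RNA-seq library of stromal vascular cells (SVC) per diet, from epididymal white adipose tissue (eWAT) of male C57BL/6J mice. Feeding with LFD or HFD began at 6 wk of age and lasted 24 wk. How many mice went into each library was not given in the sources used here, and with 1 library per diet no difference between diets has a replicate check.

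Cells handle foreign and reactive compounds in steps: enzymes such as flavin monooxygenases oxidise them, transferases then attach glutathione, methyl or sulfate groups, and peroxidases and dismutases remove peroxide and superoxide. Metallothioneins are small cysteine-rich proteins that bind zinc and copper. In adipose tissue stroma the same enzyme classes also act on hormones, since HSD11B1 regenerates active glucocorticoid from its inactive form, SULT1E1 inactivates oestrogens by sulfation and ALDH1A1 makes retinoic acid from retinaldehyde.

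Each cell barcode was counted by unique molecular identifiers (UMIs), which mark single captured RNA molecules, and a class's level is given as CPM, UMIs of a gene per 1000000 UMIs of that class. Barcodes with at least 200 genes were classed by counts of a few genes. Fibroblasts had at least 10 UMIs of Dcn (decorin, a matrix proteoglycan) and fewer than 3 of Pi16, Dpp4 and Sema3c together. Cells with 3 or more of these last were kept apart as Pi16/Dpp4/Sema3c progenitors. Endothelial cells had at least 3 UMIs of Cdh5 and Cldn5, mural cells at least 5 of Rgs5, Kcnj8, Abcc9 and Notch3, and macrophages at least 10 of C1qa, C1qb and C1qc. The libraries held 1113 barcodes with 7356278 UMIs on LFD and 1144 with 8412325 on HFD, and barcodes that met more than 1 rule were left out. This gave 204 fibroblasts in the LFD library and 207 in the HFD library, 173 and 84 progenitors, 98 and 115 endothelial cells, and 230 and 321 macrophages. Fibroblasts held 1490083 UMIs on LFD and 1599091 on HFD, with medians of 7887.5 and 7546 per cell. No barcode sequence occurred in both libraries. The mural class held only 5 and 6 barcodes, because 58 of 64 barcodes on LFD and 108 of 116 on HFD that met the mural rule also met the endothelial rule.

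All 9 fibroblast marker genes were detected in the fibroblast class on both diets. They summed to 62491 CPM on LFD and 67281 CPM on HFD, of which Dcn, a gene of the class rule, made 24854 and 19192 CPM. Progenitors, which met the same Dcn rule, had 37526 and 44558 CPM, and macrophages at most 287 CPM. The progenitor, endothelial, macrophage and mural lists also hold genes of the class rules. Part of the contrasts between classes was therefore set by the rules. Interstitial progenitor markers summed to 3266 and 3218 CPM in the progenitors and to 505 and 348 CPM in the fibroblasts. The progenitors also held mesothelial genes, 1623 CPM over 8 markers on LFD and 1412 CPM on HFD, against 240 and 166 CPM in the fibroblasts. All 8 endothelial markers together reached at most 18.8 CPM in fibroblasts. Macrophage markers there summed to 122 CPM on LFD and 40.7 CPM on HFD, of which Lyz2 made 88.6 and 16.3 CPM. Mural markers summed to 26.8 and 158 CPM, led by Myh11 on LFD (11.4 CPM) and by Tagln and Acta2 on HFD (73.2 and 51.3 CPM). The part of these other markers in the members' levels was not tested, except for the mesothelial genes as given below.

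The members lie on 7 chromosomes of the mouse genome (GRCm38, GENCODE M21). Gstm1 (ENSMUSG00000058135) occupies chr3:108012255-108017973, Fmo2 (ENSMUSG00000040170) chr1:162874317-162898726, Inmt (ENSMUSG00000003477) chr6:55170626-55175043 and Sult1e1 (ENSMUSG00000029272) chr5:87575969-87591594, all on the minus strand. The other minus-strand member is Hsd11b1 at chr1:193221634-193264075, and Gpx3 at chr11:54902453-54910377, Sod3 at chr5:52363791-52371418 and Aldh1a1 at chr19:20492715-20643465 are on the plus strand. Mt2 at chr8:94172664-94173568 and Mt1 at chr8:94179082-94180327 are neighbours on the plus strand, 5513 bases apart. Promoter windows from RefSeq (GRCm38.p6, 250 bases before to 50 after an annotated start) were found for 9 members, and those of the 2 pairs with the highest rho from cell to cell, by the lower of the libraries, are shown. Capitals mark matches to the metal response element, the zinc-responsive motif spelled TGCACNC or TGCGCNC, on either strand. The windows are Mt2 at chr8:94172368-94172667 and Mt1 at chr8:94178839-94179138, both plus strand, and Inmt at chr6:55174941-55175240 and Sult1e1 at chr5:87591562-87591861, both minus strand.
Mt2: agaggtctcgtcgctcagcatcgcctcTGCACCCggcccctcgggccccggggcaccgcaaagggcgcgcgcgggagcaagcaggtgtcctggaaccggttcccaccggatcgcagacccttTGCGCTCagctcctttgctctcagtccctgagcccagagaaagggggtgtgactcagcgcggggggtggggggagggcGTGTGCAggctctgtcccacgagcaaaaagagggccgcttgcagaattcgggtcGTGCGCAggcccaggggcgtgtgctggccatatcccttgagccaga
Mt1: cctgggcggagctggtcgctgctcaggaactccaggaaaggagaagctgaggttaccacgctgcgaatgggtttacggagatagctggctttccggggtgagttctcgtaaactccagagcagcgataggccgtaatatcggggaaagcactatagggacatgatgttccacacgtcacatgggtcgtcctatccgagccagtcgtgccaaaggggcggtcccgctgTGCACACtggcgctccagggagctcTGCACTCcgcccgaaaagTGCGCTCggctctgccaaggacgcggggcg
Inmt: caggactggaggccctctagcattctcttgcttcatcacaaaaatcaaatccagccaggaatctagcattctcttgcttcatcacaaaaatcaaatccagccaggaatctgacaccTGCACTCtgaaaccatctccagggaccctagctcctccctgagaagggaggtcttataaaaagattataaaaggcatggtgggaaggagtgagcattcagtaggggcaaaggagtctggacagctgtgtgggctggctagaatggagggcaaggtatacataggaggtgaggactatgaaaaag
Sult1e1: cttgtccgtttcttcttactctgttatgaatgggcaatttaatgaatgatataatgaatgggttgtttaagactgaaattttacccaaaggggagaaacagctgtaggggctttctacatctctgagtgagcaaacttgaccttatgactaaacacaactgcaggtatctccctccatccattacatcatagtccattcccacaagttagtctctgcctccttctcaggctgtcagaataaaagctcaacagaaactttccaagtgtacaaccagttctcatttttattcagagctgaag

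The Mt2 window held 4 metal response elements and the Mt1 window 3, while 25.7% of all 32851 promoter windows held at least 1 and 1.97% held 3 or more. The Inmt window held 1, as did those of Gstm1 and Hsd11b1, and the Sult1e1 window held none. The antioxidant response element (TGACNNNGC), which the stress factor NRF2 binds, matched in 12.4% of all windows and, among members, once each in Mt2 and Hsd11b1. A palindromic glucocorticoid response element matched in 0.475% of all windows and once in Mt1. A match of letters is a description of the window, not a bound site.

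Of the 10 members, 4 were at or under a CPM ratio (HFD over LFD) of 0.5 in fibroblasts: Inmt, Fmo2, Sult1e1 and Gstm1. Under the cell filter of the study (200 to 2500 genes and under 5% mitochondrial UMIs), which left 55 LFD and 75 HFD fibroblasts, 2 were, since Gstm1 had 0.588 and Sult1e1 0.532. The background is 2.04% of the 6415 genes with at least 50 UMIs in fibroblasts at or under 0.5, and 1.50% were at or over 2, with no member among them. The other 6 members were lower by less, with ratios between 0.779 and 0.887, so the label of falling genes held at 2-fold for 4 genes only. All 10 passed the minimum of 50 UMIs. The median ratio over the members was 0.782, beside 0.995 over all genes counted. The members' UMIs summed to 12154 CPM on LFD and 7452 CPM on HFD, a ratio of 0.613 (95% interval 0.599 to 0.628). Without the metallothioneins the sum went from 7232 to 3598 CPM, a ratio of 0.498. Intervals here are exact and cover counting error only, not the difference between mice.

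**Figure D1:**
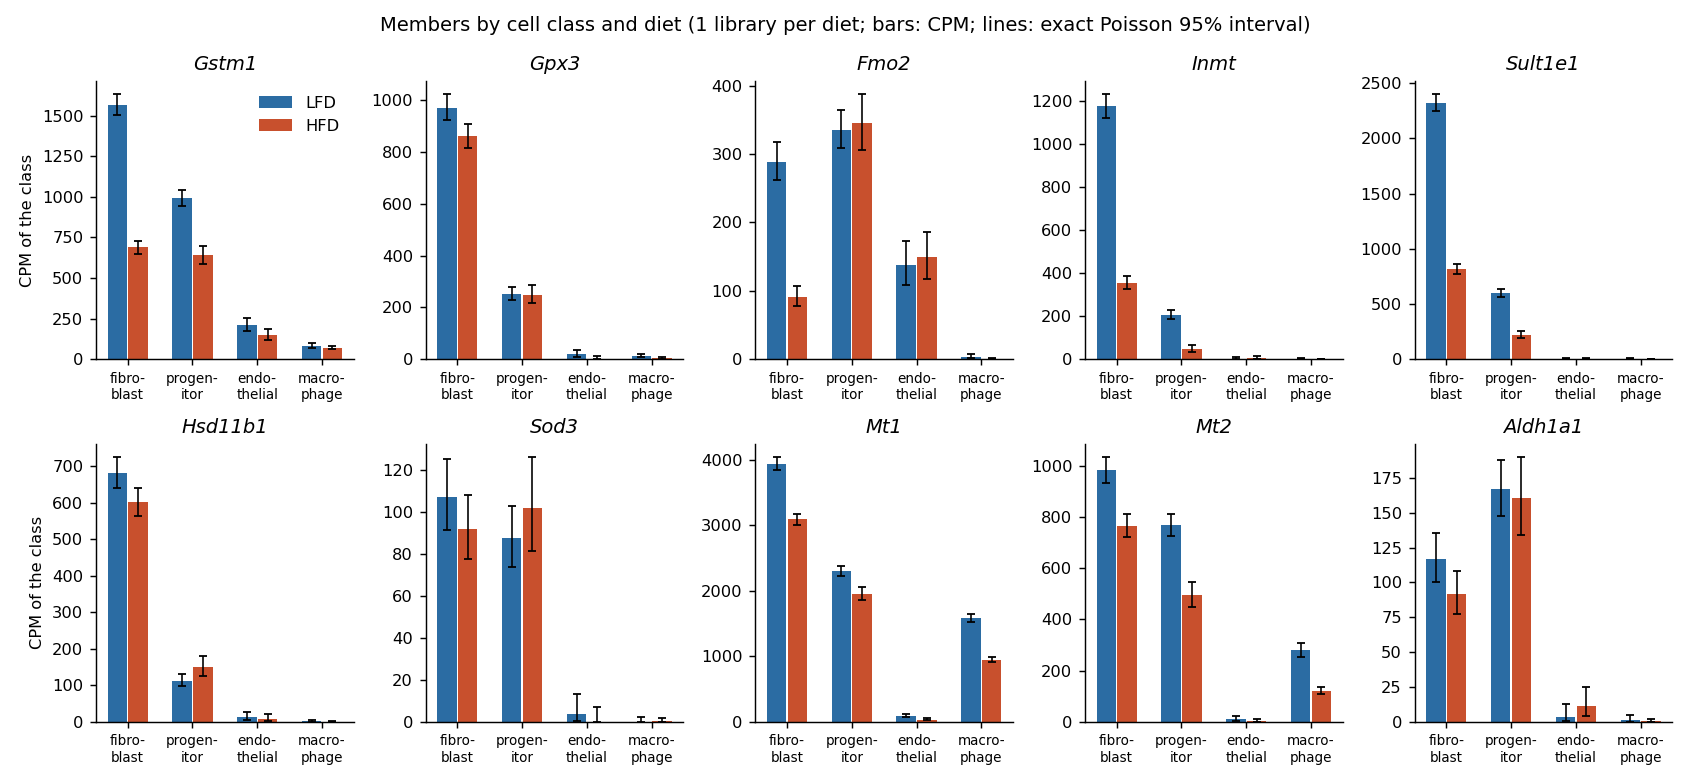
Level of each of the 10 genes in CPM (vertical axes, from 0) in 4 cell classes of the LFD (blue) and HFD (orange) library, bars for the level and lines for the exact Poisson 95% interval. Gstm1, Fmo2, Inmt and Sult1e1 stood lower on HFD in fibroblasts, Fmo2 had near-equal bars in progenitors (336 and 345 CPM), and Mt1 and Mt2 alone were also high in macrophages.

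Among the glutathione and peroxide genes, Gstm1, a mu-class glutathione transferase, had 2337 UMIs in LFD fibroblasts (1568 CPM, Poisson 95% interval 1505 to 1633) and 1102 in HFD fibroblasts (689 CPM, 649 to 731). The ratio was 0.439 (0.409 to 0.472). Reads that match several mu-class genes cannot be assigned to one of them by counting, and what this does to the Gstm1 count was not tested. Gpx3, a secreted glutathione peroxidase, had 972 CPM on LFD and 862 CPM on HFD, a ratio of 0.887 (0.823 to 0.955). More HFD than LFD fibroblasts held a Gpx3 UMI, 95.7% against 79.4%. When every cell was thinned to 2000 UMIs (186 LFD and 200 HFD fibroblasts, leaving out 18 and 7 shallower cells), the shares were 77.0% and 66.1% and the Gpx3 level was higher on HFD, with a ratio of 1.03. Gpx3 therefore had no fixed direction in fibroblasts. Sod3, the extracellular superoxide dismutase, had 107 CPM on LFD and 91.9 CPM on HFD, with an interval of the ratio that reaches across 1 (0.680 to 1.08). After thinning, its ratio was 1.44 at 2000 UMIs per cell and 0.849 at 1000.

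Fmo2, a flavin monooxygenase that oxidises nitrogen and sulfur compounds, had 430 UMIs in 103 of the LFD fibroblasts (289 CPM, 262 to 317) and 146 in 60 of the HFD fibroblasts (91.3 CPM, 77.1 to 107). Its ratio of 0.316 (0.260 to 0.383) ranked 25th from the lowest of the 6415 genes. The share of thinned fibroblasts with an Fmo2 UMI was 31.7% on LFD and 12.5% on HFD. Thinned cells that held it had a mean of 1.70 and 1.56 UMIs, both near the lowest possible value of 1, so they say little of the level per cell.

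Inmt, which methylates indoles and other amines, had 1751 UMIs in LFD fibroblasts (1175 CPM, 1121 to 1232) and 566 in HFD fibroblasts (354 CPM, 325 to 384). Its ratio was 0.301 (0.273 to 0.331), the lowest of the members and 21st from the lowest of all genes counted. Under 15 alternative settings the Inmt ratio ran from 0.252 to 0.444, and 5 of these values lay outside that interval. Sult1e1, the oestrogen sulfotransferase, had 3458 UMIs (2321 CPM, 2244 to 2399) on LFD and 1304 (816 CPM, 772 to 861) on HFD, a ratio of 0.351 (0.329 to 0.375). For these 2 transferases both the number of cells and the count per cell were lower on HFD. Thinned fibroblasts with a UMI went from 64.0% to 38.0% for Inmt and from 78.0% to 51.0% for Sult1e1, and the mean in cells with a UMI from 3.54 to 2.53 and from 5.66 to 3.77. A few HFD fibroblasts kept high Sult1e1: 9 of 200 thinned cells had 10 or more UMIs, against 30 of 186 on LFD, and the highest single value, 34, was on HFD.

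Hsd11b1, the glucocorticoid-regenerating reductase, had 683 CPM in LFD fibroblasts and 602 CPM in HFD fibroblasts, a ratio of 0.882 (0.807 to 0.965). Thinned cells held it in 58.1% on LFD and 52.5% on HFD. The ratio turned to 1.17 in cells thinned to 1000 UMIs. Aldh1a1, the retinaldehyde dehydrogenase, had only 174 UMIs on LFD and 147 on HFD, which is 117 and 91.9 CPM, with a ratio of 0.787 (0.628 to 0.986). In thinned cells its shares were 16.7% and 16.5%. Neither gene came near 0.5.

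Mt1 had 3939 CPM in LFD fibroblasts (3839 to 4041) and 3088 CPM in HFD fibroblasts (3003 to 3175), and Mt2 had 983 and 766 CPM. The ratios of these metal-binding genes were 0.784 (0.755 to 0.814) and 0.779 (0.722 to 0.841). Nearly all fibroblasts held Mt1 on both diets, 96.1% and 98.6% before thinning. The fibroblasts whose share of immediate early gene UMIs was under the pooled median numbered 81 on LFD and 124 on HFD. The Mt2 ratio was 1.01 there, whereas Inmt, Fmo2, Sult1e1 and Gstm1 stayed at or under 0.5. Mt1 stayed below 1 under all 15 alternative settings, this one among them, with a highest ratio of 0.899. The summed level of 19 immediate early and heat shock genes, which tissue dissociation is known to raise, was 26518 CPM in LFD and 21873 CPM in HFD fibroblasts. What part it has in the metallothionein values was not tested.

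Few cells lay near the Dcn threshold, and more near that of the progenitor genes. Cells with 5 to 9 Dcn UMIs, just outside the fibroblast rule, numbered 6 on LFD and 7 on HFD and had summed member levels of 4156 and 2443 CPM. The 13 and 4 fibroblasts with 10 to 19 Dcn UMIs, just inside it, had 8125 and 6548 CPM. By UMIs of Pi16, Dpp4 and Sema3c, the 4 genes at or under 0.5 summed on LFD to 6132 CPM in cells with 0 (124 cells), 4045 CPM with 1 (44 cells), 4678 CPM with 2 (36 cells), 3580 CPM with 3 (13 cells) and 2036 CPM with 4 or more (160 cells). Over all 10 members, cells with 3, just inside the progenitor rule, had 11045 CPM on LFD and 8034 CPM on HFD, beside 10872 and 8174 CPM with 2 and 5477 and 3907 CPM with 4 or more. On HFD the sums of the 4 genes were 1977, 1961, 1759, 1510 and 1221 CPM (141, 48, 18, 12 and 72 cells). The 4 genes were taken for their low ratio in cells with 0 to 2 of these UMIs, so how the sums differ between the diets is a description of that choice.

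Progenitors, known as interstitial cells upstream of more committed fat precursors, shared part of the pattern. There, 2 of the 10 members were at or under 0.5, beside a background of 1.74% of 5985 genes. Inmt had 343 UMIs on LFD (205 CPM) and 40 on HFD (48.6 CPM), a ratio of 0.237 (0.166 to 0.329). Sult1e1 had 596 and 219 CPM, a ratio of 0.367 (0.311 to 0.430). The fibroblast ratios, which chose the genes, were 0.301 and 0.351, and the classes were not tested against each other. Gstm1 had 994 and 640 CPM in progenitors. The summed members had 5817 CPM on LFD and 4362 CPM on HFD, a ratio of 0.750 (0.721 to 0.779).

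Hsd11b1 went the other way in progenitors, with 113 CPM on LFD and 151 CPM on HFD, a ratio of 1.34 (1.06 to 1.69). The 5 HFD progenitors with the most Hsd11b1 held 40.3% of its UMIs, and without the 5 highest of each library the ratio was 1.20 (0.887 to 1.61). Leaving out 5 cells takes a larger share of the 84 HFD than of the 173 LFD progenitors. Without the mesothelial-gene barcodes described next, it was 1.33 (1.05 to 1.68). Mt2 had 769 and 496 CPM in progenitors, a ratio of 0.645 (0.575 to 0.721).

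Fmo2 had 336 CPM in LFD progenitors and 345 CPM in HFD progenitors, a ratio of 1.03 (0.887 to 1.19), beside 0.316 in fibroblasts. These UMIs were uneven between cells: 5 of the 84 HFD progenitors held 62.7% of them. Most came from barcodes that also had at least 3 UMIs of the mesothelial genes Msln, Upk3b and Krt19, 25 on LFD and 12 on HFD. In those barcodes Fmo2 had 1223 CPM on LFD and 1760 CPM on HFD. In the other 148 and 72 progenitors it had 112 CPM on LFD (149 UMIs) and 26.8 CPM on HFD (18 UMIs), a ratio of 0.240 (0.138 to 0.392). That interval overlaps the fibroblast interval of 0.260 to 0.383. This split was made after the values were seen.

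Aldh1a1 had the same cellular split, with 653 and 635 CPM in the mesothelial-gene barcodes and 44.3 and 53.6 CPM in the other progenitors. Its ratios were 0.973 (0.757 to 1.24) and 1.21 (0.777 to 1.86), with intervals that reach across 1. Inmt and Sult1e1 did not share this split. In the mesothelial-gene progenitors Inmt had 4 UMIs on LFD and 0 on HFD, and Sult1e1 had 11 and 3. Leaving these barcodes out of the progenitors moved the Gstm1 ratio to 0.564 and that of the summed members to 0.667. In fibroblasts only 4 LFD and 2 HFD barcodes had 3 or more of these UMIs, and without them the Fmo2 ratio was 0.277.

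**Figure D2:**
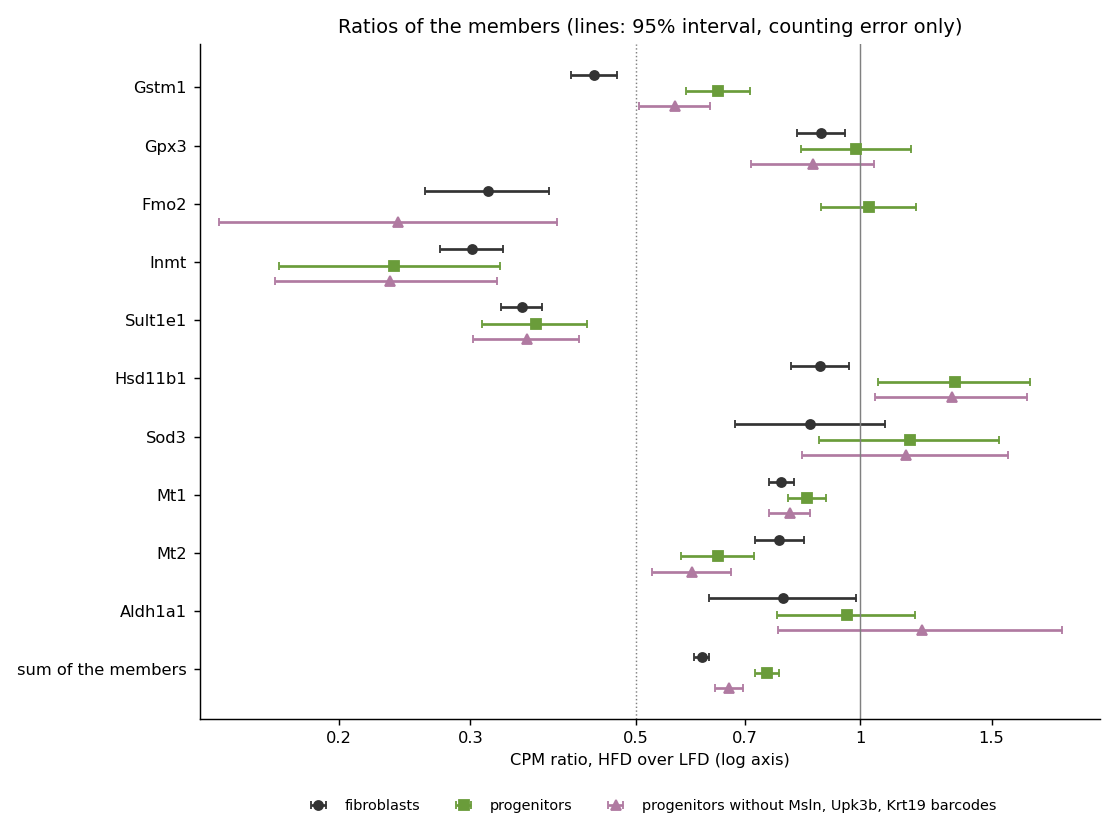
CPM ratio of HFD over LFD (log axis) for each member and their sum in fibroblasts (circles), progenitors (squares) and progenitors without barcodes of the mesothelial genes (triangles), with 95% intervals of counting error. The dotted line marks 0.5. Inmt and Sult1e1 sat left of it in all 3 sets, and Fmo2 moved from 1.03 in all progenitors to 0.240 in those without mesothelial genes.

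Outside the fibroblasts and progenitors, several members had few UMIs. Inmt and Sult1e1 had between 0 and 5 UMIs in each of the macrophage and endothelial classes of either diet. Sult1e1 was seen in 0 of 98 LFD endothelial cells, which allows a share of cells with a UMI of up to 3.06% (3 counts). The shares of macrophages with a UMI were at most 2.17% for Fmo2, Inmt, Sult1e1 and Hsd11b1, at medians of 6328 and 6915 UMIs per cell, below the fibroblast shares of these genes on both diets.

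Macrophages carried both metallothioneins. Mt1 had 1585 CPM in LFD macrophages (1522 to 1651) and 947 CPM in HFD macrophages (913 to 983), a ratio of 0.598 (0.566 to 0.632). Mt2 had 279 CPM on LFD and 121 CPM on HFD, a ratio of 0.433. The fibroblast ratios of the same genes were 0.784 and 0.779. Of the 3 members with 50 or more UMIs in macrophages, Mt2 alone was at or under 0.5 before thinning, against a background of 5.90% of 7158 genes. Gstm1, the other one, had 83.4 and 69.4 CPM. Immediate early genes in macrophages summed to 18109 CPM on LFD and 10751 CPM on HFD, and their part was not tested. The study reported different macrophage subpopulations on LFD and HFD, and the part of this make-up was not tested either.

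In endothelial cells 3 members had 50 or more UMIs, and Mt1 alone was at or under 0.5, with 49 UMIs on LFD and 17 on HFD, against a background of 1.50% of 3397 genes. Fmo2 was present there, in 30.6% of LFD and 27.8% of HFD endothelial cells, at 138 and 149 CPM and medians of 4317.5 and 3156 UMIs per cell. Its ratio of 1.08 (0.779 to 1.51) stood beside 0.316 in fibroblasts, the value that chose the gene, and the difference was not tested. On HFD, Fmo2 was lower in fibroblasts than in endothelial cells (91.3 against 149 CPM), whereas on LFD it was higher (289 against 138 CPM). Gstm1 had 210 and 149 CPM in endothelial cells. This class also held 1616 CPM of 7 adipocyte markers on LFD and 453 CPM on HFD, and 5867 and 8029 CPM of 5 red blood cell genes, with no gene of either list at 0, and their part in these values was not tested. Barcodes meeting the mural rule, whatever other rule they met, held 1168 CPM of the members on LFD and 823 CPM on HFD. In the 282 and 264 kept barcodes of no class the sum was 1405 and 659 CPM.

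How the genes' counts fell on single cells was read from fibroblasts thinned to 2000 UMIs. The members' UMIs per cell ranged from 1 to 57 with a median of 23 on LFD, and from 1 to 43 with a median of 14 on HFD. The distribution was lower as a whole: 29.0% of HFD fibroblasts (exact binomial 95% interval 22.8 to 35.8) lay below the 10th percentile of LFD fibroblasts, 78.5% below their median and 97.5% below their 90th percentile. For LFD fibroblasts themselves these shares were 9.68%, 47.8% and 89.8%. Without the metallothioneins the HFD shares were 31.0%, 77.5% and 98.0%. The members were chosen for lower levels in these HFD fibroblasts, so a lower sum follows from that choice. The interval covers the counting of cells from 1 library, not the difference between mice, and takes the LFD percentile as fixed.

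Of the 4 genes at or under 0.5, thinned LFD fibroblasts held UMIs of all 4 in 35 of 186 cells and of none in 1. On HFD all 4 were found in 5 of 200 cells and none in 33. The commonest number was 3 on LFD (73 cells) and 2 on HFD (69 cells). The share of cells with 3 or 4 of them went from 58.1% to 22.0%. Fewer of the 4 per HFD cell follows from how they were chosen, and no more is read from these counts.

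**Figure D3:**
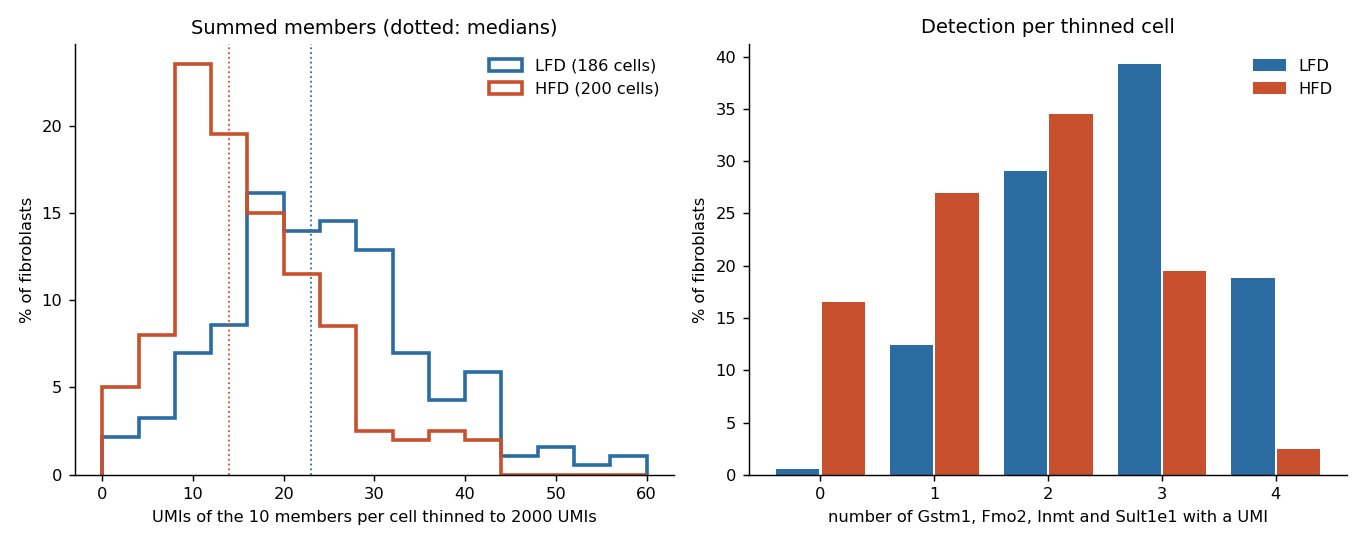
Left, UMIs of the 10 genes per fibroblast thinned to 2000 UMIs (horizontal axis) against the percentage of cells, with dotted lines at the medians of 23 (LFD) and 14 (HFD). Right, percentage of fibroblasts with UMIs of 0 to 4 of Gstm1, Fmo2, Inmt and Sult1e1; none was found in 0.538% of LFD and 16.5% of HFD fibroblasts.

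Within a diet most pairs of members had a low Spearman rho over cells, with a median over the 45 pairs of 0.027 on LFD and 0.037 on HFD. Fmo2, Sod3 and Aldh1a1 had a mean under 0.2 thinned UMIs in at least 1 library, where counts are too sparse for a rho to be read. Over the 21 pairs of the other 7 members the median was 0.063 on LFD and 0.12 on HFD, beside 0.00082 and -0.00041 over all 836571 pairs of the 1294 genes with a mean of at least 0.2. From the 5th to the 95th percentile those pairs ran from -0.124 to 0.131 on LFD and from -0.121 to 0.124 on HFD. Ranked by the lower rho of the 2 libraries, Mt1 and Mt2 were the closest pair, with rho of 0.52 on LFD and 0.43 on HFD, and Inmt and Sult1e1 followed with 0.26 and 0.25. Gstm1 and Inmt had 0.15 and 0.28, above Inmt and Sult1e1 on HFD, and Gstm1 and Sult1e1 had 0.19 and 0.13. These values describe cells of 1 library each, which share depth and handling, and weak values in such sparse counts are not read further.

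Detection of a gene in cells with and without another restates some of these values. On LFD, Inmt was found in 71.7% of thinned fibroblasts with a Sult1e1 UMI and in 36.6% of those without. On HFD the shares were 45.1% (35.2 to 55.3) and 30.6% (21.7 to 40.7), with intervals that overlap. Gstm1 was found in 89.9% of LFD fibroblasts with an Inmt UMI and in 89.6% of those without, and in 73.7% and 56.4% on HFD. Mt2 was found in 69.5% of LFD fibroblasts with an Mt1 UMI and in 4 of the 12 without. Gpx3 and Hsd11b1 had rho of 0.20 on LFD and -0.11 on HFD.

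**Figure D4:**
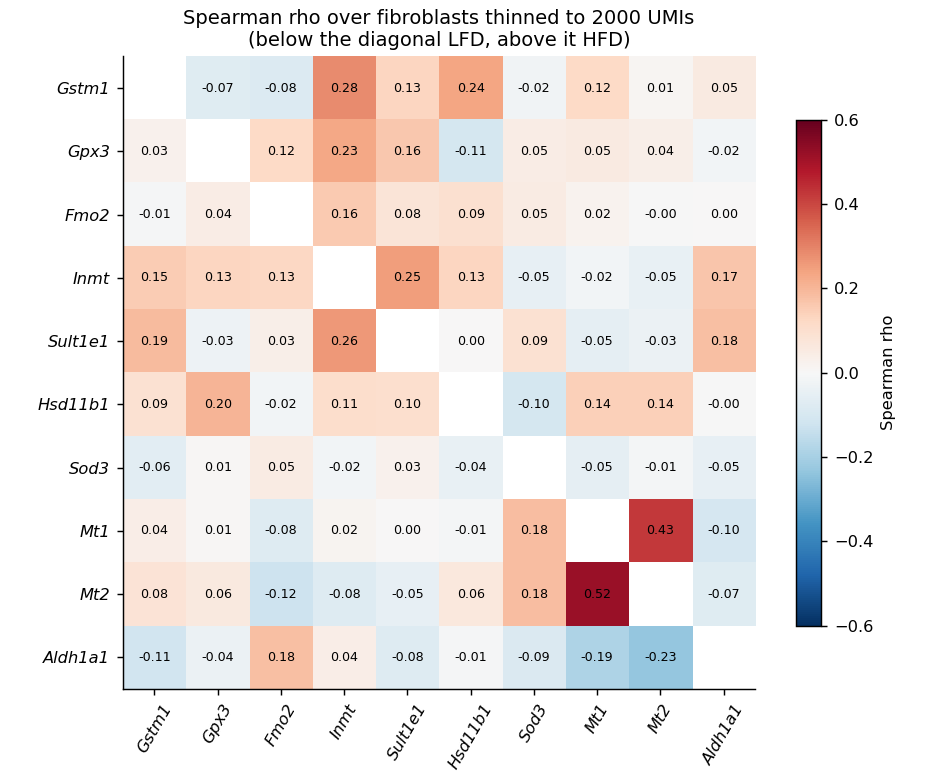
Spearman rho of each pair of members over fibroblasts thinned to 2000 UMIs, 186 cells on LFD (below the diagonal) and 200 cells on HFD (above it), with red for positive and blue for negative values. Mt1 with Mt2 (0.52 and 0.43) and Inmt with Sult1e1 (0.26 and 0.25) have the highest rho by the lower of the 2 libraries, and most other fields are near 0.

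The 6 genes whose UMIs had the highest rho to the members' summed UMIs over fibroblasts, by the lower of the 2 libraries, were Junb (0.40 on LFD and 0.31 on HFD), Socs3 (0.28 and 0.29), Dcn (0.26 and 0.31), Btg2 (0.25 and 0.24), Zfp36 (0.35 and 0.24) and Cebpb (0.34 and 0.23), of which Junb, Socs3, Btg2 and Zfp36 are on the immediate early list. The 6 with the most negative rho were Bgn (-0.18 and -0.20), Nfic (-0.21 and -0.18), Col1a2 (-0.18 and -0.25), Col1a1 (-0.16 and -0.23), Mfap5 (-0.15 and -0.21) and Uqcr11 (-0.15 and -0.18). With the sum of the other 8 members the 6 genes were Dcn (0.39 and 0.49), Dpep1 (0.27 and 0.32), Trf (0.30 and 0.25), Prelp (0.23 and 0.24), Agt (0.23 and 0.23) and Itm2b (0.23 and 0.22), none of them an immediate early gene. Dcn also served to define the class, and the part of that rule in its rho was not tested. At the other end, the 6 genes with the most negative rho to the 8 were Crip1 (-0.25 and -0.25), the chemokine gene Ccl2 (-0.25 and -0.27), the matrix genes Fn1 (-0.24 and -0.30) and Fbn1 (-0.23 and -0.37), Tagln2 (-0.20 and -0.21) and the ribosomal protein gene Rps2 (-0.18 and -0.29).

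Among the other genes of the same pathways, Gsta3 had a ratio of 0.290, below all 4 members. Over 8 detoxification lists, 82 distinct genes had at least 50 UMIs in fibroblasts, of which 6 were at or under 0.5 and 0 at or over 2, with a median ratio of 0.964 beside 0.995 over all genes. That is 7.32% beside the 2.04% over all genes; no test of the lists was made. The count of 6 was 3 in cells thinned to 2000 UMIs, 1 at 1000 UMIs and 0 under the filter of the study. The minimum of 50 UMIs was applied anew to these smaller counts. Genes could therefore leave the count by falling under it, whatever their ratio.

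Among glutathione transferases, 2 of 9 were at or under 0.5. They were Gstm5, with 330 CPM on LFD and 151 CPM on HFD (ratio 0.459, 0.392 to 0.537), and Gsta3, with 90.6 and 26.3 CPM (ratio 0.290). Mgst1, a microsomal member with 699 and 701 CPM, and Gstm2, with 236 and 208 CPM, were not. Phase I oxidation and hydrolysis genes held 2 of 11 at or under 0.5, the epoxide hydrolase Ephx1 (63.8 and 29.4 CPM) and the aldehyde oxidase Aox1 (24.8 and 10.0 CPM). Cyb5a, Cyp1b1 and Cyb5r3, the most counted genes of that list, had ratios of 0.948, 1.12 and 1.12. The median of that list was 0.730, and 5 of the 11 were below 1 with an interval that leaves out 1, among them Fmo1 (0.683), against 0 above. Over all 6415 genes 12.1% were below 1 and 11.8% above it by the same measure, and well counted genes have narrower intervals.

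Of 7 methyl, sulfate and glucuronide transfer genes none reached 0.5. Sult1a1, a phenol sulfotransferase, came closest with 110 and 56.3 CPM, a ratio of 0.511 (0.391 to 0.665). Nnmt, the nicotinamide methyltransferase, had a ratio of 1.16 with an interval that reaches across 1. The dehydrogenase and retinoid list held 2 of 12 at or under 0.5, Rbp4, the retinol carrier (51.7 and 21.3 CPM, ratio 0.411), and the fatty aldehyde dehydrogenase Aldh3a2 (29.5 and 14.4 CPM, 0.487). In the same list Aldh2 had a ratio of 0.666, whereas Aldh1a3 had 1.25.

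Of the 16 peroxide and superoxide removal genes none was at or under 0.5. With intervals that leave out 1, 9 were above 1, among them Selenop (864 and 1141 CPM) and Prdx1 (674 and 781 CPM), beside 11.8% of all genes, and 2 below it, Txn1 (979 and 837 CPM) and Gpx1 (354 and 256 CPM). Of 10 genes induced through NRF2 none passed either fold, and the ferritin genes Ftl1 and Fth1 had ratios of 1.02 and 0.916. With intervals that leave out 1, 3 were below 1 (Gclc at 0.548, G6pdx at 0.615 and Fth1) and 1 above it (Pgd at 1.58). In the glucocorticoid list, 0 of 11 reached 0.5. With intervals that leave out 1, 5 were below 1 and 1 above it, beside 12.1% and 11.8% of all genes. Klf9 and Dusp1, both induced by glucocorticoid, had ratios of 0.724 and 0.742 while Errfi1 had 1.07. Dusp1 is also on the immediate early list. Sgk1, induced by glucocorticoid too, was higher on HFD (177 and 345 CPM, ratio 1.95, 1.68 to 2.27). Zinc and copper handling genes gave 0 of 9, with ceruloplasmin (Cp) at 756 and 477 CPM, a ratio of 0.630.

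Of the 19 immediate early and heat shock genes, 14 were below 1 with intervals that leave out 1, beside 12.1% of all genes, and none at or under 0.5. Fos, Egr1 and Junb had ratios of 0.784, 0.767 and 0.943. Genes reported for adipogenesis-regulating fibroblasts split, since Gdf10 (357 and 170 CPM) and Vit (143 and 58.8 CPM) were at or under 0.5 while Mgp (1135 and 3326 CPM) and Clec11a (10.1 and 23.8 CPM) were at or over 2. Of the genes of adipogenically committed fibroblasts, Lpl, lipoprotein lipase, was at or over 2 (744 and 1597 CPM) and Fabp4 had 865 and 828 CPM. All 13 matrix genes were above 1 with intervals that leave out 1 (11.8% of all genes), and 5 were at or over 2 (1.50% of all genes): Col3a1 (3776 and 8816 CPM), Col6a1, Postn, Sparc and Timp1 (43.6 and 407 CPM).

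**Figure D5:**
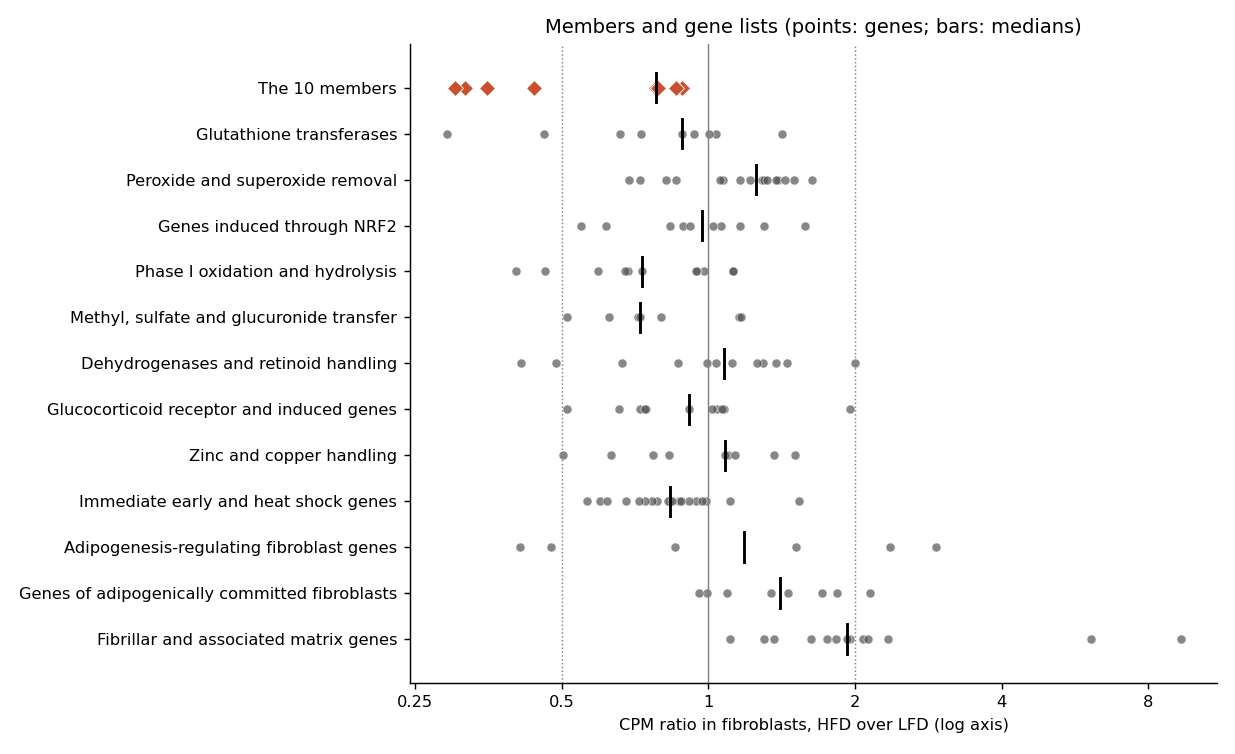
CPM ratio of HFD over LFD in fibroblasts (log axis) for the 10 members (diamonds) and for genes with at least 50 UMIs of 12 lists (points, 1 row per list, bar at the median), with dotted lines at 0.5 and 2. Members have a median of 0.782, peroxide and superoxide removal 1.25 and matrix genes 1.92.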

How the data were processed

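The authors deposited unnormalized UMI counts for every gene in each called cell, made by Cell Ranger with mm10 as the reference. The methods of the study name a later Cell Ranger release than the count table headers, which give 3.0.2. Groups come from the treatment labels, although a protocol field shared by both samples names low fat for each. The labels give 24 wk of feeding, while the methods on isolating fat pads give 24 wk as the age of the mice. The members, gene lists and class rules were chosen with earlier results of these data known.

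Counts were summed over the cells of a class and divided by the UMIs of that class. CPM have exact Poisson, shares exact binomial (Clopper-Pearson) and CPM ratios exact conditional binomial 95% intervals (scipy 1.17.1), and these cover counting error only. No p-values were computed, since each diet has 1 library. A gene needed 50 UMIs over both libraries of a class to be counted against the background, and 3 counts set the limit for a gene at 0. Cells were thinned to 2000 UMIs by drawing without replacement. Doublets were kept, as Scrublet (scanpy 1.11.5, expected rate 1%) marked 20 and 26 barcodes, of which 2 LFD fibroblasts. The study kept 200 to 2500 genes and under 5% mitochondrial UMIs, which would leave 55 of 204 and 75 of 207 fibroblasts, so that filter served as an alternative. Named list genes were the 3 most counted per list and those at or under 0.5 or at or over 2 with an interval that leaves out 1, and some genes that meet this rule are not reported here. Genes outside this rule, the mesothelial split and the threshold neighbours were added after values were seen. Simulated counts for the fibroblast comparison (6380 genes) gave intervals that held the true ratio in 96.2% of genes. These counts were drawn from the Poisson model that the intervals assume. They check the calculation only, and leave out the unevenness between cells and mice. Members were placed by Ensembl ID in GENCODE M21, which held 27645 of the listed IDs, and promoter windows were matched by symbol to RefSeq (9 members).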

Additional observations from a re-analysis of the deposited data

Results flagged for a closer look

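Hsd11b1 had opposite directions in the stromal classes, with a ratio of HFD over LFD of 1.34 in progenitors and 0.882 in fibroblasts. In fibroblasts thinned to 1000 UMIs the ratio was 1.17, the same direction as in progenitors. With 1 library per diet the difference was not tested against replicates. It was 1.20 in progenitors without the 5 highest barcodes of each library, with an interval that reaches across 1.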

How the results depend on the processing

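The number of members at or under 0.5 in fibroblasts was 4 under 13 of 14 alternatives and 2 under the filter of the study (200 to 2500 genes, under 5% mitochondrial UMIs), where 55 LFD and 75 HFD fibroblasts were left and Gstm1 had 0.588 and Sult1e1 0.532. The summed ratio in fibroblasts stayed below 1 throughout, at 0.666 as the mean of each cell's CPM, 0.663 and 0.666 in cells thinned to 2000 and 1000 UMIs, 0.712 under that filter and 0.498 without Mt1 and Mt2. In progenitors it was 0.799 in cells thinned to 1000 UMIs, 0.667 without mesothelial barcodes and 0.711 without the 5 highest barcodes. Over 150 member ratios under alternatives, 144 were below 1. Those that turned were Gpx3 at 1.03 and 1.04 (thinned to 2000 and 1000 UMIs), Hsd11b1 at 1.17 (1000), and Mt2 at 1.01 both under the study's filter and in cells low in immediate early genes. Sod3 moved to 1.44 at 2000 UMIs. The causes were not tested. Pathway genes at or under 0.5 numbered 3 and 1 in cells thinned to 2000 and 1000 UMIs and 0 under the study's filter, against 6. The share of HFD fibroblasts below the LFD median was 73.2% at 1000 and 86.2% at 4000 UMIs per cell, and the median rho at 4000 was -0.0076 on LFD and 0.025 on HFD. The background share was 6.52% with a minimum of 10 UMIs and 1.22% with 200. No paired analysis was possible because each diet has 1 library. Alternatives without highest barcodes, without Mt1 and Mt2, at 1000 and 4000 UMIs for the spread, and all those for the pathway gene count were chosen after seeing the data.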
